A study of Mus musculus with 12 samples.

Results

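Actinomycin D-treated Hepa 1-6 cells were compared with serum-free control Hepa 1-6 cells by their sample titles, which gave 2 arrays on each side and 4 of the 12 arrays in all. Hepa 1-6 is an established line from a mouse hepatoma and divides in culture. It was maintained in DMEM with 10% fetal bovine serum, and serum was removed overnight before treatment. The treated cells then received 10 µg/mL actinomycin D for 8 h, and the controls remained in medium without serum and received neither agent. AML12, a mouse hepatocyte line set up from the liver of a mouse with a TGF-alpha transgene, went through the same treatment and is shown here for comparison. Its maintenance medium also held dexamethasone and insulin, which were removed with the serum. Hepa 1-6 cells given 200 ng/mL prolactin for 8 h share their controls with this comparison. Their values are shown as a background for missing values and for differences between features. The AML12 and prolactin arrays also entered the test. A feature needed a ratio on all 12 arrays, and these arrays together set the spread behind each SE and adjusted p. The series design calls the 2 arrays of a group biological replicates. The labels give the source of the AML12 cells as hepatoma too.

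Each array gave the ratio of the sample's total RNA, labelled with Cy5, to a reference RNA pooled from 11 mouse cell lines and labelled with Cy3. These dyes are those of the label fields; the labelling text, which is cut short, mentions Cy3 alone. With the sample as numerator the hepatocyte genes Alb and Afp lay more than 4 units above the reference on every array compared. Values below are log2 ratios to that reference, 1 unit being 2-fold, and a change is the mean of the 2 treated arrays minus the mean of the 2 controls. The log base of the deposited values is not stated and was taken as 10. Of 45018 features (spots for 1 probe each), 40281 and 39207 held a ratio on the controls and 38456 and 39737 on the treated arrays. Across genes the 2 controls correlated at r = 0.983 and the 2 treated arrays at r = 0.980, whereas control and treated arrays correlated at 0.900 to 0.909. The number of arrays limits the precision of every value.

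Actinomycin D inserts into DNA and stops elongating RNA polymerases, so transcripts made before the drug decay without replacement. Transcripts with short lives, such as those of immediate-early genes and many transcription factors, are known to disappear within hours, and those of secreted liver proteins and ribosomal proteins persist. The deposited ratios are normalized and come from equal amounts of RNA, so a rise in ratio is a rise relative to the other transcripts in the sample. A transcript that was made anew cannot be told apart from one that was lost more slowly than the average. Among features that held a ratio, the median log2 ratio was 0.14 and 0.10 on the controls and 0.087 and 0.083 on the treated arrays. Fewer surviving cells and less RNA per cell cannot be told apart either, since equal amounts of RNA were labelled.

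The chemokine genes Cxcl1 and Cxcl2, which recruit neutrophils, gave 2 of the largest rises, while Nfkbia, which encodes the inhibitor that holds NF-kB in the cytoplasm, fell. Their promoters and that of Csf2, a growth factor gene for granulocytes and macrophages that also rose, are shown because all 4 are textbook NF-kB target genes that moved in different directions. They were picked after their values were seen. Sequences run 5′ to 3′ from 250 bases before to 50 bases after the gene start, from RefSeq on build GRCm38.p6, and capitals mark matches to the NF-kB consensus on either strand.
Cxcl1, chr5:90890995-90891294, + strand: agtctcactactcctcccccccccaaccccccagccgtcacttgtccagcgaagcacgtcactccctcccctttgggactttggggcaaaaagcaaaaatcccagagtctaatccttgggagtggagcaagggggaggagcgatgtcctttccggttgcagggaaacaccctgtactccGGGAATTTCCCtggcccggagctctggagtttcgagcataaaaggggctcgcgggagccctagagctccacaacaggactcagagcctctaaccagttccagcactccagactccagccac
Cxcl2, chr5:90903649-90903948, + strand: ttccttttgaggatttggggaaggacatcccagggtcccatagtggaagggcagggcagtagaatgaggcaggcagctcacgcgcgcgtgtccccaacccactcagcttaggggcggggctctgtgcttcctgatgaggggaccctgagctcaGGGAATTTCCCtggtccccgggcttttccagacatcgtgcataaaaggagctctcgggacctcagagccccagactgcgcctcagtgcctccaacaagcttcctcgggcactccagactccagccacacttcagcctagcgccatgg
Nfkbia, chr12:55492598-55492897, - strand: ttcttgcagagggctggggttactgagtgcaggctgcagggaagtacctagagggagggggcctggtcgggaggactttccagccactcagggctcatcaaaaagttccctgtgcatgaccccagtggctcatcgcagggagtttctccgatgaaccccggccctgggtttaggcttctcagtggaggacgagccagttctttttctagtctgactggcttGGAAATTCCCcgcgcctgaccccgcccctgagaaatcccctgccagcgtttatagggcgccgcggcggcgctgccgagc
Csf2, chr11:54249850-54250149, - strand: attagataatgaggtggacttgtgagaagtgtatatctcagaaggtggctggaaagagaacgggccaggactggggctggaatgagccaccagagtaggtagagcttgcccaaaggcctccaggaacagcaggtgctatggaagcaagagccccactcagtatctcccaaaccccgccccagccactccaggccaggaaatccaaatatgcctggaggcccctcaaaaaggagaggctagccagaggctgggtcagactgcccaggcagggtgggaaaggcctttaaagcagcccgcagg

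Cxcl1 and Cxcl2, neighbours on chromosome 5, carry the same 11 capitals, which hold overlapping matches on both strands starting at positions -71 and -70 in Cxcl1 and -97 and -96 in Cxcl2. Nfkbia has 1 match, which reads as the motif on the strand opposite to the one printed, starting at position -29, and the Csf2 window has none. The motif was present in 8.46% of all promoters of the table and in 11.6% of those of genes tested. Of 45 tested genes in a list of NF-kB target, chemokine and acute-phase genes, only 77.8% had a promoter in the table, so no share is read from that list. A match is a description of the letters alone: Nfkbia holds one and fell, and Csf2 holds none and rose.

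Of 16549 genes tested, 8417 changed (50.9% at an adjusted p under 0.05), 4615 upward (27.9%) and 3802 downward (23.0%). Changes of at least 2-fold were found for 895 genes upward (5.41%) and 760 downward (4.59%). Past 4-fold there were 154 and 98 genes, and past 8-fold 24 and 21. The middle of the distribution hardly moved: the median change was 0.071, and 9 in 10 genes lay between -0.98 and 1.07. Both treated arrays lay beyond both controls for 12569 genes (76.0%), so a lack of overlap alone says little with 2 arrays a group. When only features that the platform annotation ties to RefSeq transcripts were averaged, 14689 genes were tested, 4443 rose (30.2%) and 3070 fell (20.9%).

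The direction varied with the starting ratio. In the quintile of genes with the lowest control ratios, 30.5% rose and 11.0% fell, and in the quintile with the highest, 22.9% rose and 34.6% fell. The median change was 0.15 in the lowest quintile and -0.07 in the highest. The control ratio enters both quantities, and its part in that slope was not tested.

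**Figure D1:**
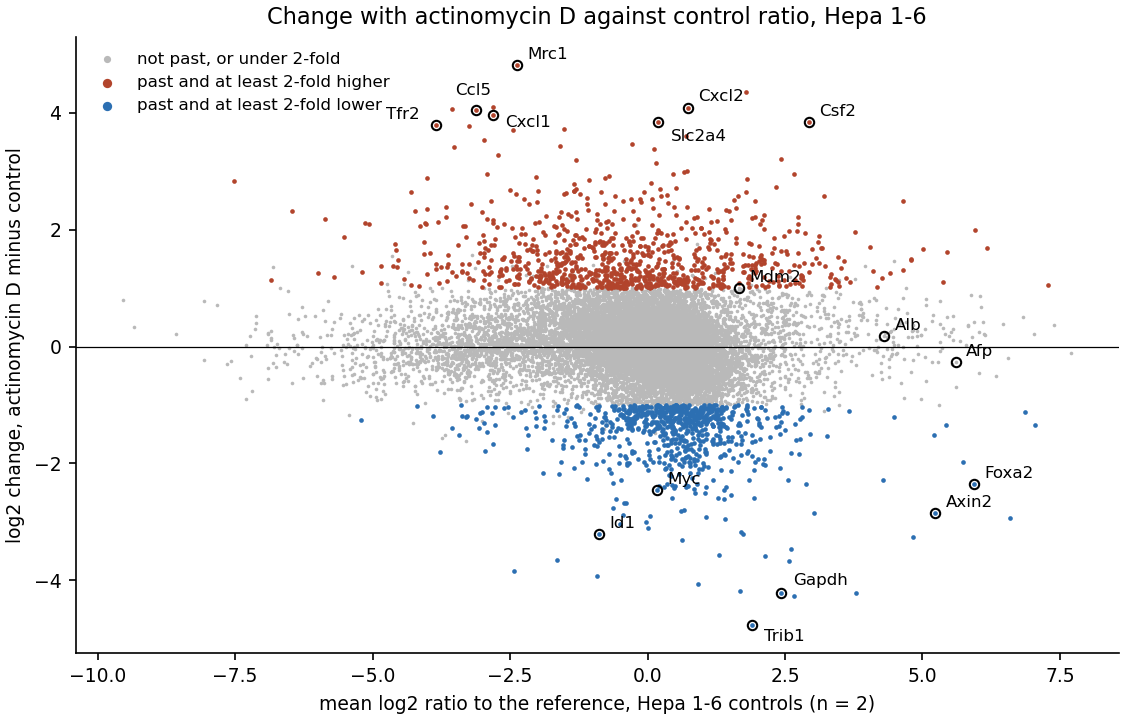
Each point is 1 of 16549 genes. The x axis is the mean log2 ratio to the reference on the 2 control arrays and the y axis the log2 change with actinomycin D; colours mark the 895 genes past the test and at least 2-fold higher and the 760 at least 2-fold lower. Trib1 lies lowest at -4.76 and Mrc1 highest at 4.82, while Alb and Afp stay near 0.

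The deepest fall was that of Trib1, a pseudokinase that brings C/EBP proteins to a ubiquitin ligase. Its log2 ratios were 1.90 and 1.88 on the controls and -2.84 and -2.89 on the treated arrays (change -4.76, SE 0.082, adjusted p 2.2e-07), a 27.1-fold loss. Rasgef1b, an exchange factor for Ras-family GTPases, went from 2.61 and 2.70 to -1.60 and -1.61 (change -4.27, SE 0.10, adjusted p 5.1e-07). In both genes the replicates lay within 0.1 of each other, and the gap between groups was over 4 units. Wdr5b, a close relative of a histone methyltransferase subunit, went from -0.93 and -0.90 to -4.62 and -5.05 (change -3.92, SE 0.23, adjusted p 1.1e-05). Mkrn3, an imprinted gene for a ubiquitin ligase, measured -1.64 and -1.64 and then -5.25 and -5.35 (change -3.66, SE 0.11, adjusted p 9.3e-07). Both genes were already below the reference in the controls. Ppp1r3c, which targets protein phosphatase 1 to glycogen, was high at 4.55 and 5.12 and reached 1.12 and 2.03 (change -3.26, SE 0.30, adjusted p 7.0e-05); its 2 treated arrays lay 0.9 apart, the widest spread among the 12 largest falls.

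The other 7 of the 12 largest falls rest, wholly or in part, on features annotated to cDNA accessions other than RefSeq transcripts, a kind of feature that often fell where the RefSeq features of the same gene did not (described further on). Gapdh, the glycolytic enzyme widely used as a reference gene, is one of them: its single usable feature read 2.52 and 2.33 on the controls and -2.08 and -1.51 on the treated arrays (change -4.22, SE 0.20, adjusted p 3.9e-06). Snhg8, a host gene of small nucleolar RNAs (-4.06, SE 0.13, adjusted p 1.1e-06), Dynlt1a, a dynein light chain gene (-3.83, SE 0.12, adjusted p 1.1e-06), and Lcmt2 (-3.58, SE 0.077, adjusted p 3.1e-07) also had 1 such feature each. For Rnf43, a ubiquitin ligase that removes Wnt receptors, the 2 features gave -5.73 and, for RefSeq, -2.69. For the zinc finger gene Zfp282 they gave -5.67 and -1.47, and for Tbx3, a T-box factor of liver progenitors, -4.75 and -2.17. Those 3 genes fell by either kind of feature, by different amounts.

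**Figure D2:**
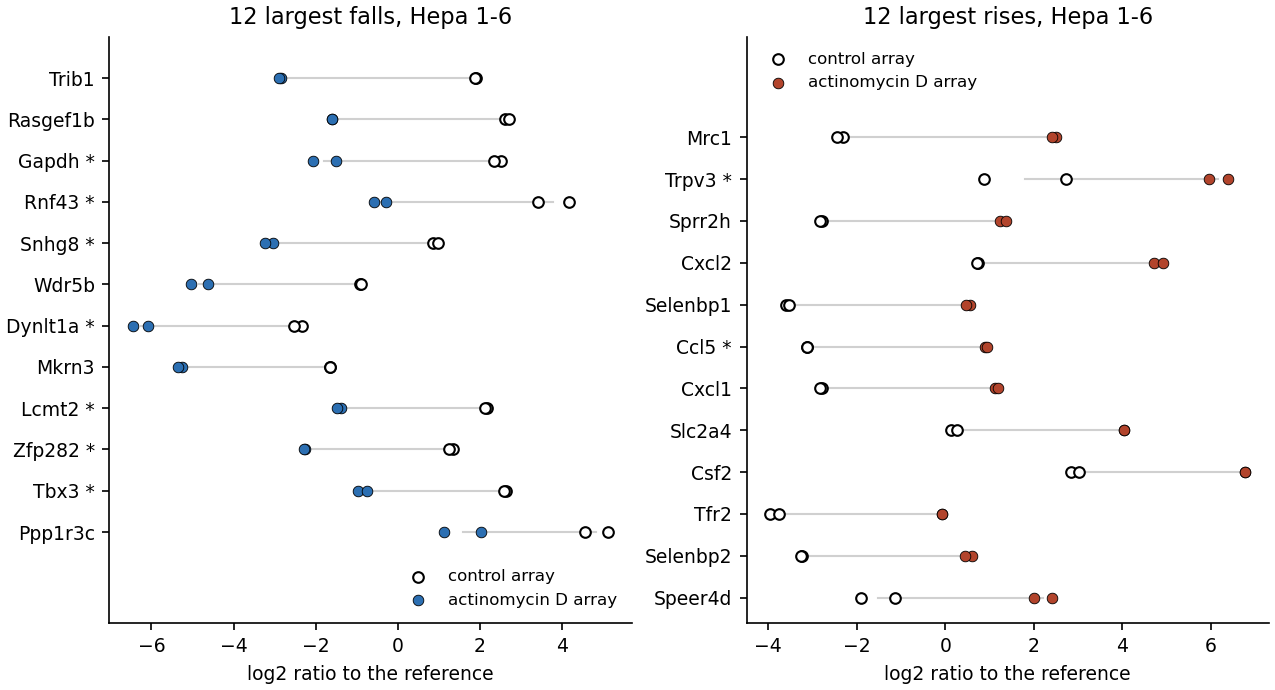
Log2 ratios to the reference on the 2 control arrays (open) and the 2 actinomycin D arrays (filled) for the 12 largest falls and the 12 largest rises. Lines join the group means, and an asterisk marks genes with at least 1 feature that has no RefSeq accession. In every gene shown the groups are separate; the controls of Trpv3, at 0.88 and 2.72, are the farthest apart.

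Many transcripts known to be short-lived fell, and some rose. Of 53 immediate-early and other short-lived transcripts, 30 fell and 11 rose (56.6% and 20.8%, against 23.0% and 27.9% over all genes). The list median was -0.52, against 0.071 over all genes. With the genes in the lowest 20% of mean ratios left out of the test, 12 falls and 4 rises of the list remained. Id1, an inhibitor of basic helix-loop-helix factors, went from -0.89 and -0.88 to -4.22 and -3.97 (change -3.21, SE 0.12, adjusted p 2.0e-06). Dusp6, the phosphatase that switches off ERK, went from 0.62 and 0.72 to -2.08 and -2.16 (change -2.79, SE 0.087, adjusted p 9.6e-07). Myc, the growth-promoting transcription factor, was read by 12 features that all fell, between -2.54 and -2.38, and its gene mean went from 0.14 and 0.19 to -2.31 and -2.28 (change -2.46, SE 0.10, adjusted p 2.6e-06). The features of Myc are tied to 1 RefSeq transcript and may be repeats of 1 probe, as may be the case in other genes with many features. Id1, Dusp6 and Myc showed no overlap and little scatter.

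Members of the same list rose as well. Ddit3, the stress factor CHOP, went from -1.14 and -1.07 to 1.38 and 1.30 (change 2.44, SE 0.065, adjusted p 8.1e-07), Egr2, a zinc finger immediate-early factor, from -3.78 and -3.54 to -1.23 and -1.32 (change 2.38, SE 0.11, adjusted p 3.9e-06; 10 features from 2.29 to 2.51), and Atf3, another stress-induced factor, from 0.17 and 0.23 to 2.20 and 2.12 (change 1.96, SE 0.12, adjusted p 1.1e-05). All 3 ended well above their control ratios after 8 h of the drug.

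Zinc finger genes, the longest list, fell more often than they rose. Of 308 genes named Zfp and a number, 168 fell and 24 rose (54.5% and 7.79%, against 23.0% and 27.9% over all genes, median -0.36). A fall of at least 2-fold was found for 73 of the 308, against 4.59% over all genes. Zfp472 (-3.10, SE 0.11, adjusted p 1.6e-06) and Zfp87 (-2.90, SE 0.060, adjusted p 2.9e-07) fell on RefSeq features, the 3 of Zfp472 agreeing within 0.3. Zfp472 read -0.10 and 0.12 on the controls and -3.19 and -3.01 on the treated arrays. Zfp239 (1.28, SE 0.21, adjusted p 0.0016), Zfp185 (1.23, SE 0.12, adjusted p 9.4e-05) and Zfp667 (1.11, SE 0.13, adjusted p 0.00027) rose, Zfp239 from a control ratio near -5. With RefSeq features alone the list gave 144 falls and 25 rises of 275.

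The list with the lowest median was that of the replication-dependent histones, whose mRNAs end in a stem-loop in place of a poly(A) tail and are made in S phase. Of 30 core and linker histone genes, 21 fell and 1 rose (70.0% and 3.33%, against 23.0% and 27.9% over all genes, median -1.02). Falls of at least 2-fold numbered 15 of the 30, against 4.59% over all genes. The linker histone gene H1f5 went from -0.45 and -0.56 to -3.55 and -3.52 (change -3.03, SE 0.14, adjusted p 3.9e-06), and H2ac15, an H2A gene, from -0.43 and -0.47 to -3.28 and -3.39 (change -2.88, SE 0.15, adjusted p 7.2e-06). H4c9, the member that rose, moved by 0.40 from a control ratio below -2.7. Histone genes of 1 class are nearly identical in sequence, so single members cannot be told apart with certainty on the array. In place of 1 rise the count was 0 with RefSeq features alone, under quantile normalization, without treated array 1 or without control 1, and 2 with the feature of highest mean ratio, without prolactin array 1 or without prolactin array 2. With the genes in the lowest 20% of mean ratios left out of the test, 10 falls and 0 rises remained.

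Several genes of the Wnt pathway, which limits itself through its own target genes, fell as well. Of 21 Wnt feedback and target genes, 9 fell and 2 rose (42.9% and 9.52%, against 23.0% and 27.9% over all genes, median -0.33). Axin2, a scaffold of the beta-catenin destruction complex and a standard Wnt readout, stood far above the reference at 5.18 and 5.28 and went to 2.22 and 2.53 (change -2.85, SE 0.20, adjusted p 2.2e-05). Notum, a secreted enzyme that inactivates Wnt proteins, went from 2.10 and 2.17 to 0.051 and 0.16 (change -2.03, SE 0.14, adjusted p 2.0e-05). Sox9 (0.48, SE 0.10, adjusted p 0.0056) and Tcf7l1 (0.54, SE 0.067, adjusted p 0.00032) rose, both by less than 0.6. The 13 features of Sox9 ran from -0.41 to 0.68, so the direction was not shared by all of them. In place of 2 rises the count was 4 when a ratio was asked for on the 4 compared arrays only, with the 4 compared arrays alone or with the Hepa 1-6 arrays alone.

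Of 25 YAP and TGF-beta target genes, 12 fell and 7 rose (48.0% and 28.0%, against 23.0% and 27.9% over all genes, median -0.28). The matricellular protein gene Ccn1 went from -1.81 and -1.99 to -4.02 and -4.12 (change -2.17, SE 0.14, adjusted p 1.4e-05), the LIM protein gene Ajuba from 1.45 and 1.33 to -0.45 and -0.46 (change -1.84, SE 0.073, adjusted p 2.3e-06), and Tead4, a DNA-binding partner of YAP, from 2.56 and 2.55 to 0.41 and 0.11 on 1 feature without a RefSeq accession (change -2.29, SE 0.11, adjusted p 4.9e-06). Amotl1, which binds YAP at cell junctions, rose (1.17, SE 0.076, adjusted p 1.5e-05), as did Skil (0.68, SE 0.075, adjusted p 0.00019), a repressor of SMAD proteins, and F3 (0.59, SE 0.090, adjusted p 0.00099), the tissue factor that starts coagulation.

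Genes for making ribosomes fell far more often than they rose. Of 57 ribosome biogenesis and RNA polymerase I genes, 34 fell and 4 rose (59.6% and 7.02%, against 23.0% and 27.9% over all genes, median -0.37). Taf1c, a subunit of the polymerase I promoter factor, went from 1.02 and 0.82 to -0.31 and -0.42 (change -1.29, SE 0.12, adjusted p 6.9e-05), and Rrs1, an assembly factor of the large subunit, from 1.53 and 1.50 to 0.22 and 0.34 (change -1.24, SE 0.083, adjusted p 1.7e-05). Nop56, a core protein of box C/D particles, fell by its gene mean (-1.90, SE 0.080, adjusted p 2.8e-06), but its RefSeq feature moved by -0.48 and the other by -3.31. The rises of Utp4 (0.36, SE 0.056, adjusted p 0.0011), Noc3l (0.35, with an adjusted p just under the threshold) and Rrp1 (0.34, SE 0.078, adjusted p 0.008) were all under 0.4. For Utp4 the RefSeq feature read -0.01 and the 2 others 0.48 and 0.60. In place of 4 rises the count was 2 under quantile normalization, when a ratio was asked for on the 4 compared arrays only, with the 4 compared arrays alone, with the Hepa 1-6 arrays alone, without treated array 1 or without control 1.

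Of 54 genes for mRNA decay factors, 26 fell and 5 rose (48.1% and 9.26%, against 23.0% and 27.9% over all genes, median -0.25). RefSeq features alone gave 19 falls and 4 rises of 46. The largest falls here, Pabpc1 (-3.01), Pan3 (-1.61) and Ttc37 (-1.29), each came from 1 feature without a RefSeq accession; the second feature of Ttc37 read 0.83. The RefSeq feature of Pabpc1, which encodes the poly(A)-binding protein, read 0.715. Cnot7, a deadenylase, rose on both of its RefSeq features (0.65, SE 0.091, adjusted p 0.00064), and the decay factors Upf2 (0.54, SE 0.17, adjusted p 0.03) and Lsm1 (0.47, SE 0.078, adjusted p 0.0015) rose on single features of the other kind. In place of 5 rises the count was 3 when a ratio was asked for on the 4 compared arrays only, with the 4 compared arrays alone, without treated array 2 or without control 1, and 8 with the feature of highest mean ratio. In place of 26 falls the count was 17 with the feature of highest mean ratio.

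Of 57 genes for RNA polymerase II, general and elongation factors and topoisomerases, 16 rose and 20 fell (28.1% and 35.1%, against 27.9% and 23.0% over all genes, median -0.028), and with RefSeq features alone 13 fell and 16 rose. Ccnt1, the cyclin of the elongation factor P-TEFb, went from 2.03 and 1.76 to -0.10 and 0.13 (change -1.88, SE 0.19, adjusted p 0.00011). The RefSeq feature of Ccnt1 moved by -1.292 and its other feature by -2.465. Hexim1, the inhibitor of P-TEFb, went from 0.88 and 0.90 to -0.58 and -0.49 (change -1.42, SE 0.080, adjusted p 8.4e-06). Aff4, a scaffold of the super elongation complex, rose on all 4 of its features, from 0.72 and 0.71 to 1.76 and 1.88 (change 1.10, SE 0.070, adjusted p 1.4e-05). The general factor genes Gtf2e2 (0.97, SE 0.070, adjusted p 2.3e-05) and Gtf2h1 (0.81, SE 0.079, adjusted p 0.0001) also rose. Top2a fell by its gene mean (-1.58) but its 2 RefSeq features averaged -0.028.

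Of 30 SR and hnRNP splicing factor genes, 14 fell and 3 rose (46.7% and 10.0%, against 23.0% and 27.9% over all genes, median -0.19). Srsf3 fell on all 3 features, from -4.12 to -1.14 (gene change -2.17, SE 0.072, adjusted p 1.2e-06), and Srsf2 on all 4 (-0.82, SE 0.10, adjusted p 0.00036). Hnrnpdl, an hnRNP gene, fell too (-1.23, SE 0.070, adjusted p 9.0e-06). Tra2a (0.52, SE 0.058, adjusted p 0.0002), Hnrnpa1 (0.32, SE 0.083, adjusted p 0.013) and Hnrnpf (0.18, SE 0.056, adjusted p 0.028) were the members that rose, and RefSeq features alone gave 6 rises and 10 falls of 28. In place of 3 rises the count was 1 when a ratio was asked for on the 4 compared arrays only, with the 4 compared arrays alone, with the Hepa 1-6 arrays alone, without treated array 2 or without control 1.

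Cell cycle genes were lower in part. Of 42 genes of G1/S and S phase, 17 fell and 7 rose (40.5% and 16.7%, against 23.0% and 27.9% over all genes, median -0.26). In place of 7 rises the count was 3 with the 4 compared arrays alone, and 4 without treated array 1 or without treated array 2. In place of 17 falls the count was 10 without treated array 1, without control 1 or without control 2, and 11 without treated array 2. Cdc25a, a phosphatase that activates cyclin-dependent kinases, went from 1.99 and 1.82 to 0.49 and 0.30 (change -1.51, SE 0.11, adjusted p 2.2e-05). Thymidine kinase Tk1 (-0.82, SE 0.11, adjusted p 0.00041) and cyclin D1 (-0.67, SE 0.11, adjusted p 0.0017; Ccnd1, 10 features) fell by less than 1. The DNA primase gene Prim1 (0.75, SE 0.10, adjusted p 0.00044) and Cdk2 (0.77, SE 0.14, adjusted p 0.0027) rose.

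Of 45 mitotic genes, 21 fell and 7 rose (46.7% and 15.6%, against 23.0% and 27.9% over all genes, median -0.25). Fbxo5, an inhibitor of the anaphase-promoting complex, went from 0.17 and 0.24 to -1.62 and -1.73 on 1 RefSeq feature (change -1.88, SE 0.089, adjusted p 4.0e-06). Kif23 and Bub3 also fell (-1.92 and -1.65), though their RefSeq features averaged -0.53 and -0.68. The kinase gene Bub1 (0.60, SE 0.16, adjusted p 0.016), the centromere motor gene Cenpe (0.55, SE 0.086, adjusted p 0.0011) and the condensin gene Ncapg (0.40, SE 0.10, adjusted p 0.012) rose. In place of 7 rises the count was 2 without treated array 2 or without control 1, and 4 with the 4 compared arrays alone or without treated array 1.

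Genes of lipid synthesis fell more often than they rose. Of 33 genes of cholesterol and fatty acid synthesis, 22 fell and 4 rose (66.7% and 12.1%, against 23.0% and 27.9% over all genes, median -0.52). RefSeq features alone gave 21 falls and 2 rises. Squalene epoxidase, Sqle, went from 1.43 and 1.52 to 0.28 and 0.25 (change -1.21, SE 0.088, adjusted p 2.3e-05). For Msmo1 and Fdps, enzymes of sterol synthesis, the gene means fell by 1.77 and 1.53 and the RefSeq features by 0.26 and 0.55. Insig2, which retains the SREBP complex in the endoplasmic reticulum, went the other way on both features, from -0.41 and -0.38 to 0.99 and 1.08 (change 1.43, SE 0.072, adjusted p 5.1e-06). Scap, the partner of SREBP, rose by less (0.46, SE 0.066, adjusted p 0.00072), as did Acss2 (0.37, SE 0.13, adjusted p 0.04), whose RefSeq features averaged 0.079. In place of 4 rises the count was 2 without treated array 2 or without control 1.

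The largest rise was that of Mrc1, the mannose receptor known from macrophages and liver sinusoidal endothelium. It read -2.30 and -2.44 on the controls and 2.49 and 2.41 on the treated arrays (change 4.82, SE 0.35, adjusted p 2.3e-05), a 28.2-fold gain. Markers of these other cell types did not share a rise of that size: leukocyte markers averaged -3.55 and -3.52 on the controls and -3.23 and -3.06 on the treated arrays, with 2 of 6 past the test upward (Ptprc, 0.79 from a control ratio near -8, and Cd74, 1.30). Endothelial markers averaged -1.05 and -1.03 and then -0.53 and -0.54, with 3 of 6 upward (Cdh5, Kdr and Vwf). The part of other cells in the Mrc1 value was not tested.

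Slc2a4, the insulin-responsive glucose transporter of muscle and fat, went from 0.13 and 0.26 to 4.03 and 4.05 on 10 features that rose by 3.61 to 4.08 (change 3.84, SE 0.24, adjusted p 1.3e-05). Csf2 went from 2.84 and 3.02 to 6.77 and 6.77 on 10 features that rose by 3.71 to 3.93 (change 3.84, SE 0.30, adjusted p 3.2e-05). In both genes every feature gave nearly the same change, but genes with about 10 features have them under 1 accession, and these may be repeats of 1 probe. Tfr2, the second transferrin receptor and a sensor of iron in hepatocytes, went from -3.95 and -3.75 to -0.081 and -0.063 (change 3.78, SE 0.11, adjusted p 8.2e-07). The selenium-binding protein genes Selenbp1 (4.07, SE 0.17, adjusted p 2.9e-06) and Selenbp2 (3.78, SE 0.12, adjusted p 1.2e-06) rose together, but they are near copies whose features may read each other's transcript. Sprr2h, a small proline-rich protein gene of the epidermis (4.10, SE 0.26, adjusted p 1.4e-05), Speer4d, a gene of a testis-expressed family (3.73, SE 0.36, adjusted p 9.1e-05), and the ion channel gene Trpv3 (4.36, SE 0.73, adjusted p 0.0015) completed the 12. The Trpv3 controls lay nearly 2 units apart, and its feature has no RefSeq accession.

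Inflammatory genes supplied 4 of the 12 largest rises. Of 45 NF-kB target, chemokine and acute-phase genes, 20 rose and 10 fell (44.4% and 22.2%, against 27.9% and 23.0% over all genes, median 0.24). Rises of at least 2-fold numbered 16 of the 45, against 5.41% over all genes. Cxcl2 went from 0.74 and 0.72 to 4.72 and 4.92 (change 4.09, SE 0.26, adjusted p 1.3e-05) and Cxcl1 from -2.79 and -2.84 to 1.12 and 1.19 (change 3.97, SE 0.17, adjusted p 2.8e-06). Ccl5, a chemokine for T cells, went from -3.13 and -3.13 to 0.90 and 0.95 on 2 features that agreed, 3.86 and 4.23 (change 4.05, SE 0.077, adjusted p 2.4e-07). The pair of promoters with the shared match shown above belongs to these genes, whose changes were nearly equal and whose control ratios lay over 3 units apart. In AML12 the same treatment changed Cxcl1 by 0.94 and Cxcl2 by 4.20. A link between the match and the changes was not tested. Further members, picked after their values were seen, were Csf3 (3.61, SE 0.23, adjusted p 1.5e-05), a granulocyte growth factor, Cxcl5 (3.19, SE 0.13, adjusted p 2.8e-06), Il1rn (3.14, SE 0.40, adjusted p 0.00036), which encodes the interleukin 1 receptor antagonist, Ccl2 (2.58, SE 0.17, adjusted p 1.7e-05) and Il6 (1.87, SE 0.22, adjusted p 0.00027).

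The 10 falls in that list, 22.2% against 23.0% over all genes, included Nfkbia and Tnfaip3, which encode inhibitors of NF-kB signalling. Nfkbia went from -0.98 and -0.87 to -2.50 and -2.51 on 1 RefSeq feature (change -1.58, SE 0.14, adjusted p 6.0e-05). Nfkbiz and Birc3 fell by their gene means (-1.97 and -1.06) but not by their RefSeq features (0.070 and 0.10). Tnfaip3, the ubiquitin-editing inhibitor A20, picked after its value was seen, fell by less (-0.53, SE 0.12, adjusted p 0.0073). In place of 10 falls the count was 6 without control 1. The serum amyloid gene Saa3 fell by little (-0.38, SE 0.11, adjusted p 0.021), and Saa1 (0.18, adjusted p 0.065) and Lcn2 (0.14, adjusted p 0.35) did not pass. Saa2, the near copy of Saa1, rose (0.63, SE 0.18, adjusted p 0.022).

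Interferon-stimulated and antigen processing genes gave 17 rises and 1 fall of 36 (47.2% and 2.78%, against 27.9% and 23.0% over all genes, median 0.30). Ifit1, an inhibitor of viral translation, went from -8.01 and -7.04 to -4.55 and -4.82 (change 2.84, SE 0.44, adjusted p 0.0011), all 4 values far below the reference. Gbp3, a guanylate-binding protein gene, went from -1.69 and -1.68 to 0.027 and 0.18 (change 1.79, SE 0.17, adjusted p 9.7e-05), and Rsad2, viperin, from -2.99 and -2.96 to -1.46 and -1.43 (change 1.53, SE 0.19, adjusted p 0.00036). Irf1, the interferon regulatory factor that also responds to NF-kB, was the member that fell, from 0.23 and 0.46 to -0.61 and -0.70 (change -0.999, SE 0.15, adjusted p 0.00078). No background marks were used for the arrays, so ratios as low as those of Ifit1 can lie at the detection limit. In place of 1 fall the count was 2 with the feature of highest mean ratio or without treated array 1. With the genes in the lowest 20% of mean ratios left out of the test, 4 of the 17 rises remained.

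The p53 target genes went both ways. Of 29, 12 rose and 6 fell (41.4% and 20.7%, against 27.9% and 23.0% over all genes, median 0.13). Mdm2, the ubiquitin ligase that degrades p53, went from 1.64 and 1.69 to 2.73 and 2.58 and all 11 of its features rose (change 0.99, SE 0.085, adjusted p 5.3e-05). The death receptor gene Fas went from 0.83 and 1.02 to 2.19 and 2.29 (change 1.31, SE 0.085, adjusted p 1.5e-05), and Pmaip1, which encodes the pro-apoptotic protein NOXA, from 2.31 and 2.28 to 4.05 and 4.25 (change 1.86, SE 0.10, adjusted p 7.8e-06). Cdkn1a, which encodes the cell cycle inhibitor p21, read 1.44 and 1.12 on the controls and 1.37 and 1.43 on the treated arrays (change 0.12, SE 0.15, adjusted p 0.56): its groups overlapped and the sign turned when control 2 was left out (-0.041) or under quantile normalization (-0.016). Sesn2 (-1.29, SE 0.080, adjusted p 1.2e-05), Plk2 (-0.58, SE 0.13, adjusted p 0.0062) and Phlda3 (-0.51, SE 0.055, adjusted p 0.00016) fell.

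Of 23 genes of the BCL2 family and inhibitors of apoptosis, 7 rose and 7 fell (30.4% and 30.4%, against 27.9% and 23.0% over all genes, median 0.043). The survival gene Mcl1 went from -0.62 and -0.51 to -2.07 and -1.94 (change -1.44, SE 0.080, adjusted p 7.7e-06) and Bcl2l1, which encodes BCL-XL, from 2.29 and 2.05 to 0.96 and 0.94 on 12 features that all fell (change -1.22, SE 0.10, adjusted p 4.5e-05). The death gene Hrk fell as well (-1.28, SE 0.22, adjusted p 0.0016). Besides Pmaip1, the mitophagy genes Bnip3, from -1.22 and -1.27 to 0.59 and 0.63 (change 1.86, SE 0.15, adjusted p 4.1e-05), and Bnip3l (0.69, SE 0.076, adjusted p 0.00018) rose. Among these members, named for the size of their change, the survival genes fell and the death genes went both ways.

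Stress genes also moved in both directions. Of 39 unfolded protein, integrated stress and heat shock genes, 17 rose and 13 fell (43.6% and 33.3%, against 27.9% and 23.0% over all genes, median 0.15). Beside Ddit3, Herpud1, a factor of protein degradation at the endoplasmic reticulum, went from -1.63 and -1.48 to -0.48 and -0.35 (change 1.14, SE 0.093, adjusted p 4.1e-05) and Ppp1r15a, a phosphatase subunit that restarts translation, from -0.19 and -0.41 to 0.98 and 0.68 (change 1.13, SE 0.13, adjusted p 0.00027). The heat shock gene Hspa1a fell by its mean (-1.04, SE 0.19, adjusted p 0.0026), but its 4 features ran from -2.62 to 0.20. For the stress kinase gene Eif2ak3 the gene mean fell (-1.20), and its RefSeq feature read -0.23. In place of 13 falls the count was 8 with the feature of highest mean ratio.

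Glycolysis and glucose transport was the list with the largest share of rises. Its 26 genes gave 16 rises and 4 falls (61.5% and 15.4%, against 27.9% and 23.0% over all genes, median 0.42). Aldoc, an aldolase, went from -1.18 and -1.21 to 0.70 and 0.64 (change 1.87, SE 0.12, adjusted p 1.4e-05), and Slc2a1, the general glucose transporter GLUT1, from -1.59 and -1.44 to -0.34 and -0.21 (change 1.24, SE 0.14, adjusted p 0.00023). Of the falls, Gapdh and Tpi1 (-1.01) rest on features without a RefSeq accession, and the RefSeq feature of Tpi1 read 0.20. Ldhb fell on a RefSeq feature (-0.90, SE 0.12, adjusted p 0.00041) from a control ratio near -4.9. RefSeq features alone left 17 rises and 2 falls of 25. Actb, another common reference gene, fell on all 10 of its features (-0.42, SE 0.11, adjusted p 0.014).

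Most genes for secreted liver proteins did not pass the test. Of 55 genes for plasma and secreted liver proteins, 16 rose, 6 fell and 33 did not pass (rises and falls 29.1% and 10.9%, against 27.9% and 23.0% over all genes, median 0.27). In place of 16 rises the count was 10 under quantile normalization. In place of 6 falls the count was 3 with the 4 compared arrays alone, and 11 under quantile normalization. Albumin, Alb, read 4.25 and 4.35 on the controls and 4.49 and 4.49 on the treated arrays (change 0.18, SE 0.12, adjusted p 0.23), and the sign turned under quantile normalization (-0.28). Alpha-fetoprotein, Afp, an oncofetal marker of hepatoma, read 5.51 and 5.70 and 5.29 and 5.39 on 10 features (change -0.27, SE 0.084, adjusted p 0.029). Ambp, from 1.86 and 2.20 to 3.59 and 3.39 (change 1.46, SE 0.21, adjusted p 0.00073), and protein C, Proc, from 3.32 and 3.49 to 4.58 and 4.52 (change 1.15, SE 0.14, adjusted p 0.00028), rose. The complement factor gene Cfi also rose but its controls, 7.01 and 5.35, were far apart (change 1.69, SE 0.55, adjusted p 0.032). Heparin cofactor II, Serpind1, fell from -0.10 and 0.20 to -2.60 and -1.15 (change -1.93, SE 0.38, adjusted p 0.0037), with treated arrays 1.4 apart, and Igfbp4 (-0.71, SE 0.091, adjusted p 0.00039) and Lcat (-0.60, SE 0.12, adjusted p 0.0039) fell by less than 1.

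Hepatocyte markers were high, as the label of the line implies: 8 of 12 were tested, all but Ahsg lay above the reference on the controls, and they averaged 3.26 and 3.41 on the controls and 3.07 and 3.06 on the treated arrays. Afp and Foxa2 fell and none rose. Fibroblast markers averaged between -3.56 and -3.35 on the 4 arrays, with Col1a1 near -5.6, although decorin, Dcn, stood at 4.29 in the controls. Of 8 tested, Des (1.13) and Lum (0.65) rose and Dcn fell by its gene mean (-2.28). The RefSeq feature of Dcn moved by 0.18 and its other feature by -4.74. Of 5 cholangiocyte markers 3 rose, Krt7 (0.96), Epcam (0.56) and Sox9, and Krt19 fell (-0.41).

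Of 40 hepatocyte transcription factor and nuclear receptor genes, 11 rose and 11 fell (27.5% and 27.5%, against 27.9% and 23.0% over all genes, median -0.057). Foxa2, a pioneer factor of liver genes, stood among the highest ratios at 5.83 and 6.04 and went to 3.56 and 3.60, and its 10 features fell by nearly the same amount (change -2.35, SE 0.10, adjusted p 2.7e-06). Tbx3 fell more by its gene mean (-3.46) but not by its RefSeq feature (-2.17), and Nr2f2, the nuclear receptor COUP-TFII, fell less (-1.01, SE 0.087, adjusted p 5.3e-05). The nuclear receptor gene Rora went from -1.73 and -1.59 to -0.037 and -0.075 (change 1.60, SE 0.11, adjusted p 2.0e-05) and Creb3l3, a membrane-bound factor of hepatic lipid metabolism, from -0.042 and -0.38 to 1.21 and 1.20 (change 1.42, SE 0.13, adjusted p 6.9e-05). Nr2f1, a relative of Nr2f2, rose from a ratio near -4.5 (1.37, SE 0.21, adjusted p 0.0011).

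Cytochrome P450 genes of families 1 to 4, many of which oxidise drugs and steroids, gave 15 rises and 5 falls of 49 (30.6% and 10.2%, against 27.9% and 23.0% over all genes, median 0.23). Cyp2c23 went from -0.87 and -0.75 to 0.96 and 1.01 (change 1.79, SE 0.15, adjusted p 4.7e-05) and Cyp4f16 from 1.12 and 1.00 to 2.50 and 2.26 (change 1.32, SE 0.14, adjusted p 0.00016). Cyp4b1, high in the line at 4.49 and 4.49, went to 3.14 and 3.42 (change -1.20, SE 0.12, adjusted p 0.00011). Cyp2c39 fell with treated arrays 1.4 apart (-1.60, SE 0.38, adjusted p 0.0089). Members of these families are similar in sequence, so features of 1 gene may also read another. In place of 5 falls the count was 3 without control 1.

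Of 22 long non-coding transcripts and small nucleolar RNA hosts 13 were tested, nearly all on features without RefSeq accessions. They gave 5 falls and 2 rises (38.5% and 15.4%, against 23.0% and 27.9% over all genes, median -0.38). Besides Snhg8, Snhg5 (-2.33, SE 0.092, adjusted p 2.3e-06) and Gas5 (-1.23, SE 0.063, adjusted p 5.8e-06) fell by their means, but the 2 features of Snhg5 read -4.34 and -0.33 and those of Gas5 -2.85 and 0.39. The nuclear transcripts Neat1 (0.64, SE 0.12, adjusted p 0.0023) and Malat1 (0.59, SE 0.18, adjusted p 0.029) rose, Malat1 on 4 features that all moved upward. In place of 2 rises the count was 1 without treated array 1, without treated array 2, without control 1 or without control 2. RefSeq features alone left 1 member in the test, with 0 rises and 0 falls, so that setting cannot be set against these counts.

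Ribosomal protein genes changed in both directions. Of 71 cytosolic ribosomal protein genes, 26 rose and 17 fell (36.6% and 23.9%, against 27.9% and 23.0% over all genes, median 0.10), with no rise past 0.63, the value of Rpl4 (0.63, SE 0.086, adjusted p 0.00054). With RefSeq features alone 29 rose and 6 fell of 71. In place of 26 rises the count was 12 with the 4 compared arrays alone, and 14 without control 1, and 17 without treated array 2. In place of 17 falls the count was 8 with the feature of highest mean ratio, and 11 with the 4 compared arrays alone or without control 1. The largest falls, Rpl9 (-2.28), Rpl32 (-2.14) and Rps13 (-1.78), stood at 0.088, -0.16 and 0.18 on their RefSeq features.

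Of 78 mitochondrial ribosomal protein genes, 39 fell, against 23.0% over all genes, and 9 rose (11.5%, against 27.9% over all genes, median -0.20). Only 1 of them, Mrps15, fell at least 2-fold (-1.29), and its RefSeq feature read -0.26. In place of 39 falls the count was 23 with the 4 compared arrays alone.

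Nuclear genes for oxidative phosphorylation gave 16 rises and 23 falls of 82 (19.5% and 28%, against 27.9% and 23.0% over all genes, median -0.009). The largest falls rest on features without a RefSeq accession: Ndufv2, of complex I (-1.69, SE 0.091, adjusted p 7.4e-06), has 2 of them, at -3.60 and 0.23, while Uqcrq, of complex III (-1.32, SE 0.086, adjusted p 1.5e-05), and Atp5j2, of ATP synthase (-1.22, SE 0.070, adjusted p 8.7e-06), read 0.040 and -0.36 on RefSeq features. The cytochrome oxidase subunit gene Cox7a1 went from -1.53 and -1.56 to 0.12 and 0.016 (change 1.62, SE 0.11, adjusted p 1.8e-05), and Ndufv3, of complex I, rose on 3 features (1.16, SE 0.10, adjusted p 4.2e-05). In place of 16 rises the count was 8 without control 1. In place of 23 falls the count was 15 with the 4 compared arrays alone.

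Proteasome subunit genes gave 9 rises and 14 falls of 39 (23.1% and 35.9%, against 27.9% and 23.0% over all genes, median -0.072). Psmd4, a ubiquitin receptor of the proteasome (-1.27, SE 0.15, adjusted p 0.00027), and the core subunit gene Psma3 (-1.11, SE 0.068, adjusted p 1.2e-05) fell by their gene means and read 0.29 and -0.22 on RefSeq features. The interferon-inducible subunits Psmb9 (0.59, SE 0.11, adjusted p 0.0024) and Psmb8 (0.50, SE 0.063, adjusted p 0.00036) were among the rises. In place of 9 rises the count was 4 with the 4 compared arrays alone, and 5 without control 1.

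**Figure D3:**
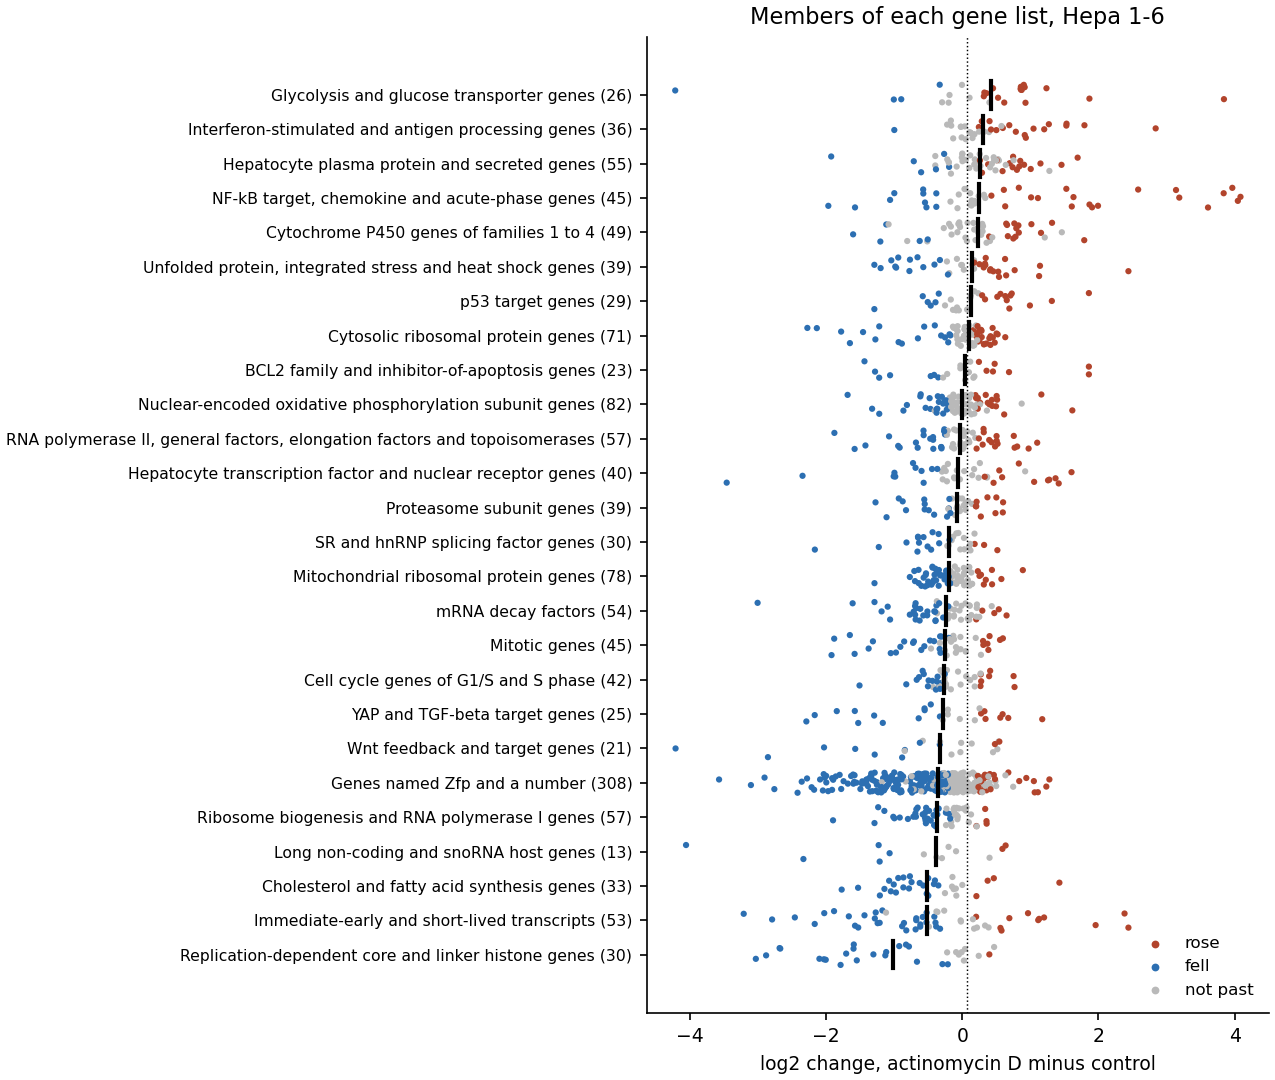
Each point is a tested member of a list, named at the left with the number tested, at its log2 change. Colours mark genes that rose, fell or did not pass, black bars are list medians, and the dotted line is the median of 0.071 over all genes. Histone genes have the lowest median at -1.02 and glycolysis genes the highest at 0.42; most lists hold members on both sides.

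Features of 1 gene often disagreed on how far it fell. The platform annotation ties 22163 usable features to RefSeq transcripts and 6356 to other cDNA accessions. Of the RefSeq features 3.70% were at least 2-fold lower and 6.55% at least 2-fold higher, and of the others 16.0% and 4.85%. Among 2879 genes with both kinds, the other features were lower than the RefSeq features by at least 1 unit in 681 and higher in 84, and by at least 2 units in 243 and 11. The median difference was -0.24.

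Pabpc1 was the extreme case. Its RefSeq feature read 0.17 and 0.31 on the controls and 0.93 and 0.98 on the treated arrays, and the other feature -0.34 and -0.23, then -6.41 and -7.61. The other feature of the RNA helicase gene Dhx9 read 1.80 and 1.71, then -4.22 and -2.72, while the RefSeq feature stayed at 0.75 and 0.87, then 0.63 and 1.08. For Top2a the 2 RefSeq features moved by -0.16 and 0.11, and the other by -4.69. For Rpl9 they moved by 0.088 and -4.64. In these 4 genes the controls of both kinds lay within about 1 unit of each other, while the changes differed by over 4.

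The AML12 arrays, which share no sample with this comparison, gave 613 genes with the other features lower by at least 1 unit and 145 with them higher, and 457 genes were lower in both lines. Prolactin in Hepa 1-6, against the same controls, gave 25 and 16. The annotation in hand does not say which part of a transcript, or which transcript, each feature reads, and no probe sequence was used here. The difference between the kinds is given as measured, and its cause was not tested. With RefSeq features alone, 483 genes fell at least 2-fold, in place of 760.

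**Figure D4:**
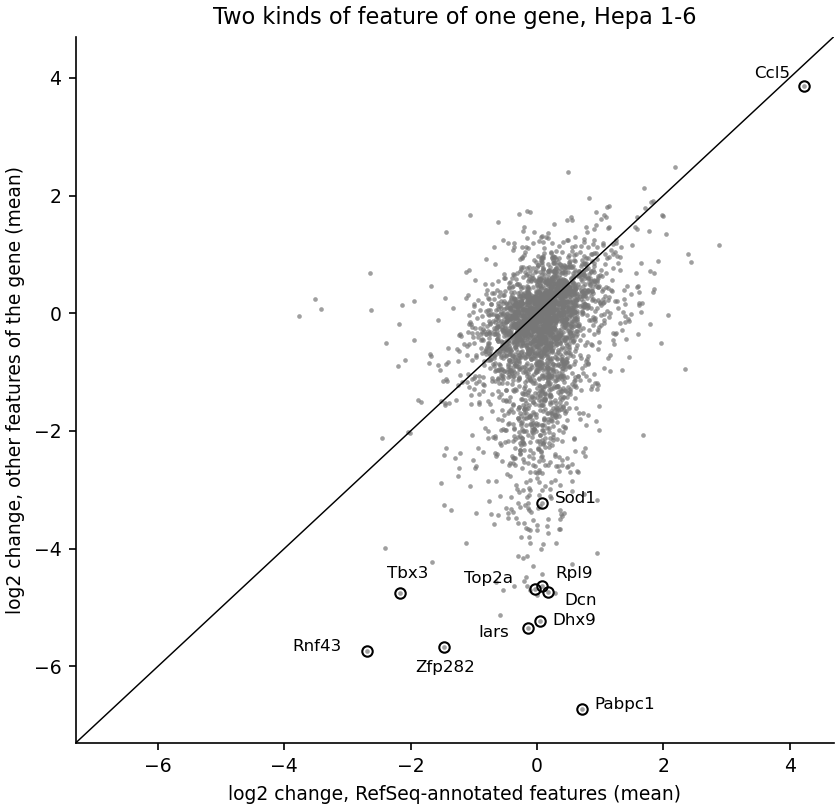
Each point is 1 of 2879 genes with both kinds of feature: the x axis is the mean log2 change of its RefSeq-annotated features and the y axis that of its other features, with the line of equality. A column of genes, Pabpc1, Dhx9, Rpl9 and Dcn among them, lies near 0 on the x axis and below -4 on the y axis; Ccl5 lies near the line.

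Some features lost their ratio with the drug and so could not enter the test. Of 38751 features with a ratio on both controls, 381 (0.983%) had none on both treated arrays, and 169 features went the other way. Prolactin, against the same controls, lost 136 and gained 191, and changed 6 genes by the test (0.0363%). Of the 381, 228 also held a ratio on both prolactin arrays, 210 carried 1 gene symbol and 171 carried none. Losses made up 0.394% of RefSeq features and 1.66% of other features with a symbol, and in AML12 846 features were lost and 92 gained, 119 of the losses being shared.

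The 10 named losses with the highest control ratios were Melk, Slc9a8, Lgr5, Vrk2, Taf1a, Dapk1, Set, Grb14, Eddm3b and Cacna2d1, with mean control ratios from 2.99 for Melk, a mitotic kinase gene, to 2.05 for Cacna2d1, a calcium channel subunit gene. Of these features 9 have no RefSeq accession, Eddm3b being the exception. The other 9 genes have remaining features, whose gene change ran from -0.72 for Slc9a8, a sodium-proton exchanger gene, to 0.83 for Dapk1, a death-associated kinase gene, and was 0.35 for Melk. A missing ratio is not a measured 0, and no size of change is given for it.

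The same treatment of AML12 allowed a test of whether the lines responded alike. In AML12 4640 genes rose (28.0%) and 4223 fell (25.5%), and across the 16549 genes the changes correlated at r = 0.559, a description across genes that are not independent. Of the 760 genes that fell at least 2-fold in Hepa 1-6, 628 (82.6%) fell in AML12 too, and 21 rose there. Of the 895 that rose at least 2-fold, 493 (55.1%) rose in AML12 and 50 fell. The difference between the responses passed the test for 4972 genes (30.0%), and 228 (1.38%) passed a test for a difference greater than 2-fold, 131 higher in Hepa 1-6 and 97 lower.

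Among the largest differences were those of acute-phase genes. Saa3, a serum amyloid, changed by -0.38 in Hepa 1-6 and by 9.12 in AML12 (difference -9.50, adjusted p 7.4e-08). Saa1, a serum amyloid of the liver with a near copy in Saa2, changed by 0.18 and 6.81 (difference -6.63, adjusted p 6.7e-08), and the lipocalin gene Lcn2 by 0.14 and 6.08 (difference -5.94, adjusted p 2.0e-06). Ptgs2, cyclooxygenase 2, was at -9.49 and -9.18 on the Hepa 1-6 controls, among the lowest ratios of the array, and its 11 features did not share a direction. Cxcl1 (3.02, adjusted p 0.00012) and Ccl5 (1.93, adjusted p 3.6e-05) rose more in Hepa 1-6, and for Cxcl2 the difference was -0.11 with an SE of 0.36 (adjusted p 0.85).

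Other genes fell less, or rose, in Hepa 1-6. Ccn2, a YAP target, changed by -1.53 against -5.76 in AML12 (difference 4.23, adjusted p 1.8e-05) and Plk2 by -0.58 against -4.35 (difference 3.77, adjusted p 2.0e-05). Ddit3, Mdm2, Sox9 and the steroid dehydrogenase gene Hsd3b4 rose in Hepa 1-6 and fell in AML12, where they changed by -0.68, -0.65, -2.36 and -2.19. Tbx3 and Ppp1r3c fell in Hepa 1-6 and in AML12 changed by 0.26 and 0.36, which did not pass there, with differences of -3.72 and -3.62 (adjusted p 4.5e-05 and 0.00073). Trib1 fell in both lines, with changes of -4.76 in Hepa 1-6 and -3.06 in AML12.

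**Figure D5:**
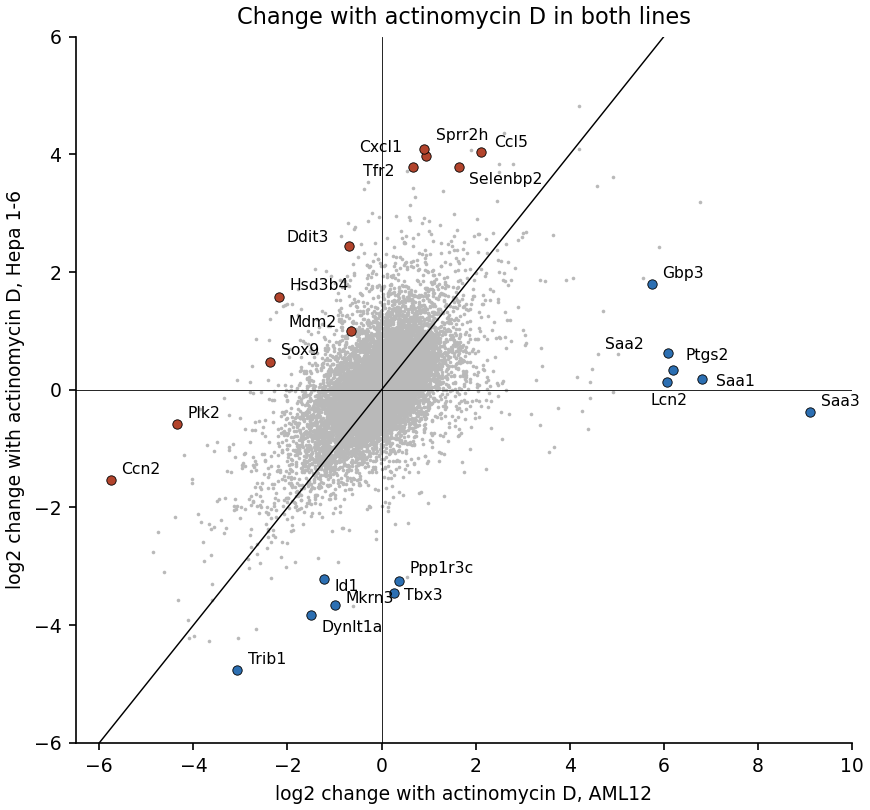
Each grey point is a gene at its log2 change with actinomycin D in AML12 (x axis) and Hepa 1-6 (y axis), with the line of equal change. Coloured points are the 23 named genes past the test for a difference above 2-fold; Saa3, Saa1, Lcn2 and Ptgs2 lie far to the right near 0 on the y axis, and Ccn2 and Plk2 far to the left.

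Gene length and promoter composition were described for the genes that changed most. The genomic span had a median of 15.2 kb among genes that fell at least 2-fold, 20.9 kb among those that rose and 19.9 kb among all tested. Where promoters were in the table, those of the falling genes held a median of 20.5 CpG per 300 bases against 17.0 for all tested, and their GC content was 59.7% against 58.7%. Only 76.3% of the genes that rose at least 2-fold had a promoter there, too few for the same reading.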

How the data were processed

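Gene expression was measured with 12 two-colour Agilent mouse arrays, 1 per sample, of which the 4 Hepa 1-6 control and actinomycin D arrays were compared. Per feature, the authors deposited 1 normalized ratio on a log scale, taken here as a log10 ratio of sample (Cy5) over reference (Cy3). The submitters' processing notes name Agilent Feature Extraction. Version, settings, log base and signal levels were not stated in these sources. All arrays had the same dye orientation, so a dye effect is shared by both groups and cancels in a change. Exact zeros were read as features with no ratio, and values were converted to log2. Gene names came from the platform annotation, updated by Entrez identifier (99.6% of features with 1 symbol matched).

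Features with a ratio on all 12 arrays and 1 symbol (28519) were averaged into 16549 genes, of which 7067 had several features. They were tested with the moderated test of limma 3.58.1 (R 4.3.3), two-sided, at a Benjamini-Hochberg adjusted p of 0.05 over all genes, with 1 mean per group over the 12 arrays; 6 residual degrees of freedom and a prior of 1.84 set the spread. "Rose" and "fell" mean past that threshold. The difference between lines was the interaction contrast, and limma's treat tested for a difference above 2-fold. The code was tested on simulated data. The 2 arrays of a group are called biological replicates, with no word on separate cultures, so p-values measure the spread between these samples. Replicate numbers were not used to pair the samples. Deviations of same-numbered control and treated arrays correlated at 0.033, over 2 pairs, too few to tell whether the numbers pair them.

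The genes named were the 12 largest rises and falls with separate groups and no predicted models, up to 3 rises and 3 falls of each list, 8 fixed genes, the 10 lost features with the highest control ratio and the 5 largest line differences each way, and exceptions are marked. Genes, lists and tests were chosen with earlier results of these data known. Alternatives changed the scaling, the features used per gene, the arrays in the fit, the prior, the treatment of zeros and the replicate block. Shares of proteins with zinc finger repeats and protein lengths were planned and not run, since no protein sequences were at hand.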

Additional observations from a re-analysis of the deposited data

Results flagged for a closer look

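The difference between the responses of Hepa 1-6 and AML12 to actinomycin D passed limma's treat test for more than 2-fold in 23 named genes, each value being the Hepa 1-6 change minus the AML12 change. It was below 0 for some acute-phase, inflammatory and interferon-stimulated genes: -9.50 for Saa3, -6.63 for Saa1, -5.94 for Lcn2, -5.87 for Ptgs2, -5.45 for Saa2 and -3.96 for Gbp3. For the chemokine genes Cxcl1 and Ccl5, given below, it was above 0. Saa1 and Saa2 are near copies, and their features may read both transcripts. It was also below 0 for genes that fell more in Hepa 1-6: -3.72 for Tbx3, -3.62 for Ppp1r3c, -2.67 for Mkrn3, -2.33 for Dynlt1a, -1.98 for Id1 and -1.70 for Trib1.

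It was above 0 by 4.23 units in Ccn2, 3.77 in Plk2, 3.77 in Hsd3b4, 3.20 in Sprr2h, 3.12 in Ddit3, 3.12 in Tfr2, 3.02 in Cxcl1, 2.84 in Sox9, 2.13 in Selenbp2, 1.93 in Ccl5 and 1.65 in Mdm2. With 2 arrays a group, no array could be set apart from its own group.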

How the results depend on the processing

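Of 175 named genes 169 passed the test. Across the 24 settings other than the reported one, 12 of which left out 1 array, 131 of the 169 kept their direction and their side of the threshold wherever they could be tested; 28 lost the threshold in at least 1 setting, and 15 named genes changed sign in at least 1. With the 4 compared arrays alone, 77.3% of the 8417 called genes were still called in the same direction. With genes in the lowest 20% of mean ratios left out, 7057 of them stayed in the test and all kept their call. Lower list counts in that setting thus reflect members left out of the test. Among other lists it left 11 rises of stress genes, 7 falls of hepatocyte factors and 4 falls of NF-kB target genes. Leaving out each array in turn gave 6508 to 8458 changed genes, 3547 to 4661 higher and 2961 to 3797 lower, 853 to 912 at least 2-fold higher and 713 to 818 at least 2-fold lower, and 3617 to 4955 that differed between the lines. A block for the replicate number gave 8272 genes (4552 higher, 3720 lower) and moved none of these counts by over 1.5 times. The labels do not say whether the numbers pair the samples. The median change was 0.071 as reported, 0.074 after median centring and 0.018 after quantile normalization, which gave 3870 rises and 4118 falls.

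Testing every feature by itself gave 17906 calls, 9518 higher and 8388 lower, 1930 and 2802 at least 2-fold, and 10545 that differed between lines; more features than genes were tested. RefSeq features alone, a setting chosen after seeing the data, gave 483 falls of at least 2-fold, and 228 lost features remained when a ratio on both prolactin arrays was asked for. With the feature of highest mean ratio, changes turned to 0.11 for Top2a, 0.715 for Pabpc1, 0.83 for Ttc37, 0.07 for Nfkbiz, 0.10 for Birc3, -0.048 for Acss2, 0.088 for Rpl9, 0.18 for Rps13, 0.04 for Uqcrq, 0.29 for Psmd4 and -1.03 for Ptgs2. With RefSeq features they turned to 0.715 for Pabpc1, 0.07 for Nfkbiz, 0.10 for Birc3, 0.20 for Tpi1, -0.01 for Utp4, 0.088 for Rpl9, 0.18 for Rps13, 0.04 for Uqcrq and 0.29 for Psmd4. Quantile normalization turned Cdkn1a to -0.016, Alb to -0.28 and Ptgs2 to -0.093, and leaving out 1 array moved Cdkn1a between -0.041 (without control 2) and 0.275 (without control 1). The cause was not tested. Signal over background is not given, so very low ratios may lie at the detection limit.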

Other observations

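Among the 169 features that held a ratio on both treated arrays and on neither control, 4 with the highest treated ratios are given, picked after their values were seen. Klrc1, a receptor gene of natural killer cells, read 3.20 and 4.22 on the treated arrays. Epha5, an ephrin receptor gene, read 3.49 and 3.65, but its other feature moved by -0.013. Dppa3, a gene of oocytes and early embryos, read 3.01 and 3.72, with 0.42 and 1.33 on the prolactin arrays, and Gdf3, a growth factor gene of pluripotent cells, read 2.96 and 3.72. No control ratio exists for these features, so no change can be given, and prolactin against the same controls also gained 191 features.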
